A study of Mus musculus with 4 samples.

Results

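The naive and memory programme genes are 9 genes that quiescent T cells express, several of which are turned down in effector T cells. They were taken by name as *Tcf7*, *Lef1*, *Klf2*, *Foxo1*, *Foxp1*, *Il7r*, *Ccr7*, *S1pr1* and *Satb1*. They are 9 of the 24369 genes listed, and all 9 were among the 14143 genes with enough counts to be tested. They were measured by RNA-seq in 4 libraries of spleen CD4 T cells from wild-type C57BL/6 mice, 2 libraries from cells that received an empty retrovirus (EV RV, MSCV-IRES-eGFP) and 2 from cells that received a retrovirus carrying *Tox* (Tox RV, MSCV-Tox-IRES-eGFP). Naive cells of both groups were activated with anti-CD3, anti-CD28 and IL-2 without polarizing cytokines, transduced on day 2, stimulated again on day 5 for 5 h through CD3 and sorted for GFP. The methods name anti-CD3 alone for this last step and the series description names anti-CD3 and anti-CD28. The labels list a second anti-CD28 where the methods give IL-2. Each group stood for 2 individual mice, whose age is not given in the sources used here. *Tox* was driven by the viral promoter, so Tox RV cells are a model of ectopic expression. All 4 libraries come from activated cells, and no resting naive cells were among them.

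In a resting T cell the transcription factor FOXO1 sits in the nucleus and maintains *Il7r*, *Klf2* and *Ccr7*, and KLF2 in turn maintains *S1pr1*. Signals from the T cell receptor and CD28 activate PI3K signalling, which moves FOXO1 out of the nucleus, so that these genes are turned down as the cell becomes an effector. TCF1 (encoded by *Tcf7*) and LEF1 are HMG-box factors like Tox, and they hold T cells in a naive or memory state.

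The start regions of the members were read from RefSeq promoter sequences (build GRCm38.p6), which matched 7 of the 9 genes with 17 windows. They were searched on both strands for a FOXO motif (TGTTTAC), a TCF/LEF motif (CTTTGAT), a KLF motif (CCACACCC) and an AP-1/BATF motif (TGANTCA). Of all 32851 windows of the same length in the table, 3.65% held the FOXO motif, 3.73% the TCF/LEF motif, 3.56% the KLF motif and 7.81% the AP-1/BATF motif. Only 1 of the 17 windows held any of these letters, that of a second *Tcf7* start. It is shown with the windows of *Klf2* and *Il7r*, which are known FOXO1 targets and hold none of the 4 motifs. Each line runs from 250 bases before the start to 20 bases after it, on the gene's own strand, and capitals mark a match.
*Tcf7* second start, chr11:52282576-52282845, minus strand: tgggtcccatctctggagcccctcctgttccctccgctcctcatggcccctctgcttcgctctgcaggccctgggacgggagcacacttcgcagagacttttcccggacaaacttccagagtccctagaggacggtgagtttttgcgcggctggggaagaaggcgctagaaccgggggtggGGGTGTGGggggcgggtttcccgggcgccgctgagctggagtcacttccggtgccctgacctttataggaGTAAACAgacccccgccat
*Klf2*, chr8:72318812-72319081, plus strand: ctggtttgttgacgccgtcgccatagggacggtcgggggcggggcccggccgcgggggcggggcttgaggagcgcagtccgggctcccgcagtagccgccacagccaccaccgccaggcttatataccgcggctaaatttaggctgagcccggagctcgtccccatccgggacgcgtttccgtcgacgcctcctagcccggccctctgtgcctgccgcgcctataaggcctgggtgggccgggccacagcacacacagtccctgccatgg
*Il7r*, chr15:9529857-9530126, minus strand: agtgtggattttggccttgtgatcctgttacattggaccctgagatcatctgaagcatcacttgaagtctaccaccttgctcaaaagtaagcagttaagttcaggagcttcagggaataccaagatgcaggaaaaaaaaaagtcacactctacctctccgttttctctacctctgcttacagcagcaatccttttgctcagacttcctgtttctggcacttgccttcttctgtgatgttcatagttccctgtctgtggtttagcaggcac
In the *Tcf7* window the first capitals are the KLF motif read on the opposite strand, starting at position -69 from the start. The second capitals are the FOXO motif on the opposite strand, starting at position 2 inside the transcript. The motifs do not overlap, and a match of letters is a description of the sequence and not a binding site.

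The libraries held 46990044 to 74548708 counts. *Tox* itself was measured in counts per 1000000 (CPM, scaled by edgeR's TMM method) and stood at 11.7 and 5.73 in the EV RV pair against 121 and 99.9 in the Tox RV pair, with every library on the side of its label. Values of a pair are given with replicate 1 first throughout. The 7 markers of CD4 T cells summed to 1640 to 2222 CPM, with *Cd4* at 324 to 479 CPM, and the 2 CD8 T cell markers together were at 3.88 to 4.77 CPM. The 6 B cell markers summed to 1.40 to 1.75 CPM with *Ms4a1* and *Pax5* at 0 counts in every library, and the 6 myeloid markers summed to 0.959 to 1.45 CPM. The 5 NK cell markers summed to 52.2 and 12.7 CPM in EV RV and 28.3 and 7.04 CPM in Tox RV, mostly from *Klrk1*, with *Ncr1* at 0 counts in every library. EV RV replicate 1 stood apart from the other 3 libraries. It had the largest share of *Rn45s*, the ribosomal RNA precursor (24.7% of its counts, against 7.14% to 12% in the others), and the members and lists are given with and without it.

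The comparison asked how the members' RNA levels differ between cells with ectopic Tox expression and cells with the empty vector. Of the 9 members, Tox RV cells had lower levels of 7 and higher levels of 2, and the median log2 fold change was -0.30 against 0.00361 over all genes tested. With all 4 libraries the largest differences were in the trafficking genes *Ccr7* and *S1pr1* and in *Klf2*, and the smallest in *Tcf7*, but without EV RV replicate 1 *Tcf7* had the largest (1.33) and *S1pr1* the smallest (-0.01). By edgeR's quasi-likelihood test and Benjamini-Hochberg adjustment, 0 members passed an adjusted p of 0.05, and 0 of all 14143 genes did (0%). The transduced gene *Tox*, with a log2 fold change of 3.68, was also not called by this test (adjusted p = 0.490). Over all genes, 512 had an unadjusted p below 0.05, 152 of them higher and 360 lower (2.55% of the genes tested were lower at this level), and *Ccr7* was the 1 member among them. DESeq2 called 22 genes (0.156% of those tested) and limma on log2 TPM called 0, with 0 members in either. A log2 fold change below 0 was found in 49.6% of all genes. In bulk RNA, a smaller number of cells that express a gene and less of its RNA per cell cannot be told apart. With 2 libraries against 2, the adjusted p-values rest on only 2 mice per group, with variance information shared over the genes tested.

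**Figure D1:**
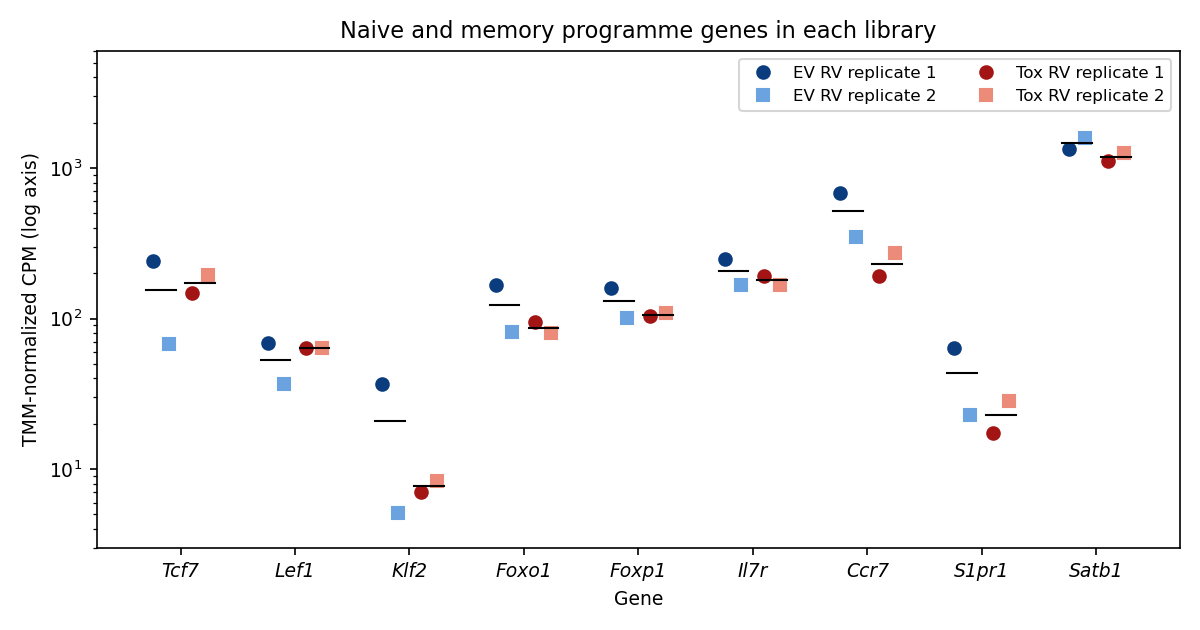
Level of each member in each library, in TMM-normalized CPM on a log axis, with a black line at the mean of the 2 libraries of a group. EV RV replicate 1 (dark blue) is the highest of the 4 libraries for 8 of the 9 genes, and *Ccr7* and *Satb1* are lower in either Tox RV library (red) than in either EV RV library.

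Of the HMG-box factors, *Tcf7* (chr11:52252371-52283014, minus strand, mm10), which encodes TCF1, was at 242 and 67.9 CPM in EV RV and at 148 and 195 CPM in Tox RV. Both Tox RV libraries lay between the EV RV libraries, which themselves differed 3.56-fold. The log2 fold change was 0.15 (standard error 0.56, 95% confidence interval -1.23 to 1.53), an interval that reaches past a 2-fold difference on either side. *Lef1* (chr3:131110471-131224356, plus strand), the partner of TCF1, was at 69.2 and 36.5 CPM in EV RV and at 63.7 and 63.2 CPM in Tox RV. Here too both Tox RV libraries lay between the EV RV libraries, and they were nearly equal to each other. *Lef1* differed by 0.27 on the log2 scale (standard error 0.31, interval -0.51 to 1.04). Read without EV RV replicate 1, the log2 fold changes were 1.33 for *Tcf7* and 0.79 for *Lef1*, and without EV RV replicate 2 they were -0.50 and -0.12. Each of these fits held a lone EV RV library.

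*Foxo1* (chr3:52268336-52353221, plus strand), the factor that maintains the quiescence genes, was at 166 and 81.1 CPM in EV RV and at 94.4 and 79.8 CPM in Tox RV. EV RV replicate 2 lay between the Tox RV libraries and EV RV replicate 1 above them all, which gave a log2 fold change of -0.50 (standard error 0.35, interval -1.36 to 0.36). *Foxp1* (chr6:98925338-99522721, minus strand), a forkhead factor that keeps naive T cells quiescent, was similar, with 161 and 100.3 CPM in EV RV and 104.5 and 108 CPM in Tox RV. EV RV replicate 2 was the lowest and EV RV replicate 1 the highest of the 4 libraries. For *Foxp1* the log2 fold change came to -0.30 (standard error 0.25, interval -0.92 to 0.33). *Satb1* (chr17:51736187-51833290, minus strand), a chromatin organizer of T cells, was the most abundant member in CPM, at 1341 and 1581 CPM in EV RV and 1114 and 1263 CPM in Tox RV. It was the 1 member for which EV RV replicate 1 was not the highest library, and the Tox RV libraries were the lower pair. *Satb1* differed by -0.30 on the log2 scale (standard error 0.17, interval -0.73 to 0.13). Leaving out any 1 library gave values from -0.42 to -0.17.

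*Klf2* (chr8:72319033-72321656, plus strand), a zinc-finger factor that maintains *S1pr1*, had the widest spread of the members. It was at 36.5 and 5.08 CPM in EV RV, from 1540 and 387 counts, and at 7.002 and 8.37 CPM in Tox RV, from 443 and 434 counts. EV RV replicate 1 was 7.18-fold above EV RV replicate 2, a gap larger than that of 99.6% of the genes tested, while the Tox RV libraries lay 1.51-fold above EV RV replicate 2 on the mean. Over all 4 libraries *Klf2* differed by -1.43 on the log2 scale (standard error 0.82, interval -3.47 to 0.61). It was 0.59 without EV RV replicate 1 and -2.25 without EV RV replicate 2, so the direction of *Klf2* depended on which EV RV library it was read against. Each of these fits held a lone EV RV library.

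Of the receptors, *Ccr7* (chr11:99144196-99155077, minus strand) carries T cells into lymph nodes along the chemokines CCL19 and CCL21. It was at 684 and 348 CPM in EV RV and at 191 and 271 CPM in Tox RV, or 516 ± 238 CPM (SD, n = 2) against 231 ± 56.6 CPM (SD, n = 2). The Tox RV libraries were the lower pair without overlap, an order seen in 17.4% of all genes tested (they were the higher pair in 18.6%). Of the members, 2 of 9 had this order, *Ccr7* and *Satb1*, and 0 had the opposite one. The log2 fold change of *Ccr7* was -1.16 (standard error 0.36, interval -2.05 to -0.27), with an unadjusted p of 0.0193 and an adjusted p of 0.897 by edgeR's quasi-likelihood test and an adjusted p of 0.241 in DESeq2. By unadjusted p it ranked 171 of the 14143 genes tested. *Ccr7* kept a log2 fold change below 0 under each of the 12 alternative settings. It was -0.60 without EV RV replicate 1 and -1.57 without EV RV replicate 2, each from a fit with a lone EV RV library.

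*S1pr1* (chr3:115710433-115715072, minus strand) encodes the receptor that lets T cells leave lymphoid organs along sphingosine 1-phosphate. It was at 63.9 and 22.8 CPM in EV RV and at 17.2 and 28.4 CPM in Tox RV. EV RV replicate 1 stood above the other 3 libraries, and EV RV replicate 2 lay between the Tox RV libraries. For *S1pr1* the log2 fold change was -0.93 (standard error 0.51, interval -2.18 to 0.33) with all libraries and -0.01 without EV RV replicate 1. *Il7r* (chr15:9505788-9530176, minus strand), the IL-7 receptor chain that naive and memory cells need to survive, was at 248 and 166 CPM in EV RV and at 192 and 166 CPM in Tox RV. The groups of *Il7r* overlapped. Its log2 fold change of -0.21 (standard error 0.24, interval -0.80 to 0.38) had the narrowest interval of the receptors.

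Each member except *Ccr7* and *Satb1* differed more between the EV RV libraries than between the group averages on the log2 scale. The median size of the log2 gap between EV RV replicates was 0.97 over the 9 members and 0.38 over all genes, and between Tox RV replicates it was 0.24 and 0.17. EV RV replicate 1 was the highest of the 4 libraries for 8 of 9 members and for 37% of all genes. Without it 6 members were higher and 3 lower in Tox RV, and the median log2 fold change was 0.10. Without EV RV replicate 2 all 9 were lower, with a median of -0.60, and *Foxo1* came to -0.93. In that fit 2.78% of all genes were called, 393 in number, and the lone EV RV library was taken to vary like the Tox RV libraries. *Rn45s* and the NK cell markers were also highest in EV RV replicate 1, and their part in these values was not tested.

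**Figure D2:**
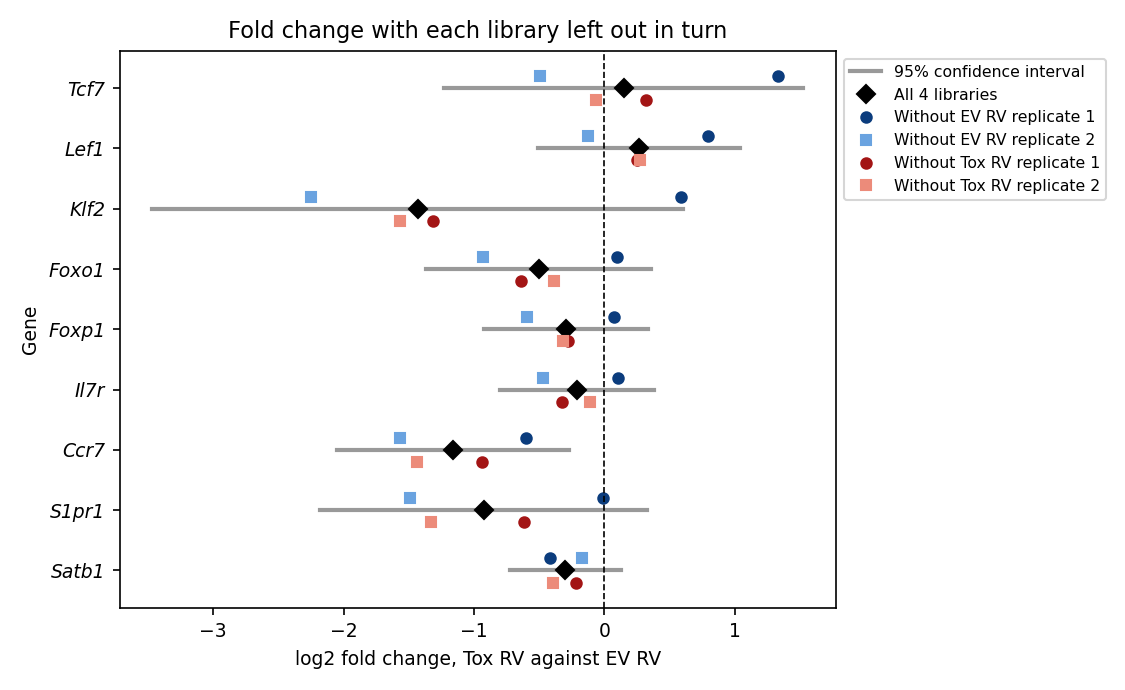
Log2 fold change of each member between Tox RV and EV RV cells from edgeR, with all 4 libraries (black diamond, with the 95% confidence interval as a grey bar) and after leaving out 1 library at a time. Leaving out EV RV replicate 1 (dark blue) puts 6 of the 9 genes above 0, while *Ccr7*, *S1pr1* (-0.01) and *Satb1* stay below 0.

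To compare genes with each other, levels were read as transcripts per 1000000 (TPM), which are set per transcript length. In EV RV cells *Ccr7* had the highest mean level, 466 TPM, followed by *Satb1* at 391 TPM, and the ranges of these genes overlapped. *Tcf7* (123 TPM) and *Il7r* (110 TPM) came next and overlapped each other. *Foxo1*, *Lef1*, *Foxp1*, *S1pr1* and *Klf2* followed at means of 37.6 down to 20.7 TPM, each overlapping its neighbour. The EV RV level of *Klf2* ran from 4.84 to 36.6 TPM, wider than the whole range of those 5 means. In Tox RV cells the order was clearer, because the libraries lay closer together. *Satb1* came first at 301 TPM and *Ccr7* second at 195 TPM, with no overlap between them. *Tcf7* followed at 126, *Il7r* at 89.5 and *Lef1* at 36.4 TPM. *Foxo1* (24.8 TPM) and *Foxp1* (24.1 TPM) overlapped, and *S1pr1* at 12.2 TPM and *Klf2* at 7.10 TPM came last.

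The deposited files also give, for each gene, the length of its transcripts weighted by their estimated abundance. This value moves only when the estimated shares of a gene's transcripts move, and the fold change does not use it. For *Lef1*, with 3 transcripts of 2298, 3357 and 3482 bases in GENCODE, it came to 2752 and 2772 bases in EV RV and 2827 and 2837 bases in Tox RV. The Tox RV libraries were the longer pair without overlap, by 69.4 bases between the means or 2.48%. This relative shift was larger than that of 90.2% of the 3978 tested genes with more than 1 transcript, whose median was 0.196%. For *Foxp1*, with transcripts of 2468, 7029 and 7177 bases, it was 6976 and 6966 bases in EV RV and 6933 and 6950 bases in Tox RV, a shift of 0.429% in the other direction. The *Foxp1* shift was larger than that of 64.6% of the 3978 genes. The GENCODE lengths given for *Lef1* and *Foxp1* can differ from those that RSEM weighted. The single transcript of *Foxo1*, for example, has 5552 bases as deposited and 8665 in GENCODE. The groups overlapped for *Ccr7* and *Satb1*, and the other 5 members have a single transcript in these files. Groups did not overlap in 29.6% of the 3978 genes, against 2 of these 4 members, and no test was run.

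**Figure D3:**
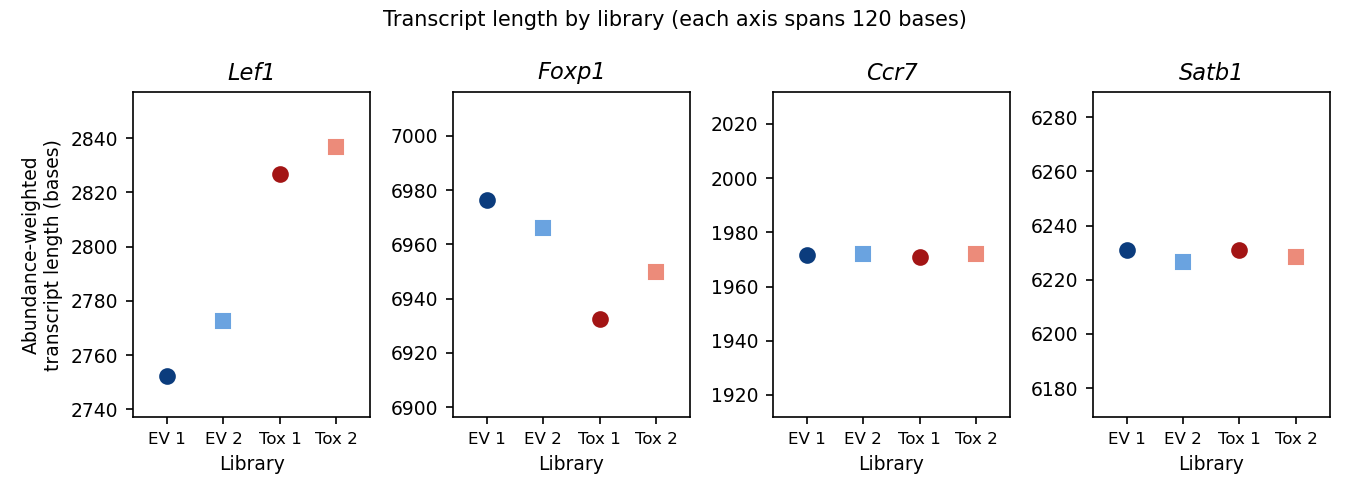
Abundance-weighted transcript length in bases for the 4 members with more than 1 transcript, by library, each axis spanning 120 bases. *Lef1* is longer in the Tox RV pair and *Foxp1* shorter, without overlap, and *Ccr7* and *Satb1* lie level.

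Other genes of the same biology were read from lists, none of which had a member called by edgeR with all 4 libraries, the count filter and no block. Without EV RV replicate 2 edgeR called genes in some of the lists, *Tox* among them. That fit held a lone EV RV library, and its calls are not read as results of the lists. Scaling by library totals in place of TMM moved the median log2 fold change of all genes to 0.12, and list values under that scaling are given where they turn or shift the split. Of 30 other naive and memory genes, 23 were lower and 7 higher (20 and 10 by library totals) and the median log2 fold change was -0.25. By unadjusted p the leading genes were *Dapl1*, a gene of naive and memory signatures, at 1.26 and 0.709 CPM in EV RV and 0.348 and 0.231 CPM in Tox RV (log2 fold change -1.73), and *Arl4c*, a small GTPase, at 107 and 87.9 CPM in EV RV and 162 and 133 CPM in Tox RV (0.59). Without EV RV replicate 1 the list was split 15 and 15 with a median of 0.07. *Bach2*, a repressor of effector genes, was chosen with its values in view. It was at 374 and 107 CPM in EV RV and 154 and 140 CPM in Tox RV. EV RV replicate 1 was at the top and replicate 2 at the bottom, as for *Tcf7*, *Lef1*, *Klf2*, *Foxp1* and *Il7r* among the members.

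Of 19 FOXO pathway genes tested, 17 were lower and 2 higher (11 and 8 by library totals) and the median log2 fold change was -0.19, which became 0.01 without EV RV replicate 1 and -0.44 without replicate 2. *Bcl2l11*, a FOXO target that encodes the pro-apoptotic protein BIM, was at 322 and 219 CPM in EV RV and 175 and 145 CPM in Tox RV, with the Tox RV libraries the lower pair. Its log2 fold change was -0.76 (unadjusted p = 0.0210, adjusted p = 0.897 by edgeR's quasi-likelihood test). It came to -0.46 without EV RV replicate 1 and to -1.01 without replicate 2. Of 16 TCF/LEF partners and targets, 10 were lower and 6 higher, with a median of -0.07 that turned to 0.05 by library totals (7 lower and 9 higher), led by *Bcl9*, a coactivator of beta-catenin (-0.69), and *Tle2*, a corepressor (-1.08). Their median was -0.04 without EV RV replicate 1 and -0.19 without replicate 2. *Bcl9* came to -0.17 without EV RV replicate 1 and to -1.08 without replicate 2. *Tle2*, below 1 CPM in every library, came to -0.59 without EV RV replicate 1 and to -0.23 by limma on log2(TPM + 1).

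Of 10 genes of IL-7 receptor signalling, 6 were lower and 4 higher and the median log2 fold change was -0.19, or 0.03 without EV RV replicate 1. This median was -0.04 by library totals, -0.32 without Tox RV replicate 1 and -0.08 without Tox RV replicate 2. *Stat5b*, the transcription factor downstream of the receptor, was at 259 and 245 CPM in EV RV and 197 and 198 CPM in Tox RV (-0.35). Its replicates lay close together in each group, with an unadjusted p of 0.0712 and an adjusted p of 0.897 by edgeR's quasi-likelihood test. *Cish*, a feedback inhibitor of this pathway, had a log2 fold change of -0.42, or -0.26 without EV RV replicate 1 and -0.24 without Tox RV replicate 2. Of 18 genes of trafficking by S1P receptors and CCR7, 9 were higher and 9 lower, with a median of -0.00479 that became 0.13 by library totals (12 higher and 6 lower) and 0.09 without EV RV replicate 1. *S1pr3*, another S1P receptor, was below 1 CPM in every library (-1.77, or -0.25 by limma on log2(TPM + 1), unadjusted p = 0.0179 by edgeR's quasi-likelihood test), and *Arrb2*, an arrestin that desensitizes such receptors, was at 63.2 and 48.1 CPM in EV RV and 84.1 and 73.0 CPM in Tox RV (0.50).

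Among 13 related transcription factors 7 were lower and 6 higher and the median log2 fold change was -0.08, which turned to 0.03 by library totals (5 lower and 8 higher) and to 0.14 without EV RV replicate 1 (also 5 lower and 8 higher). Apart from *Tox* (3.68, adjusted p = 0.490 by edgeR's quasi-likelihood test, but called by DESeq2 and by edgeR with no filter, with the replicate block and with any 1 library left out), the leading genes were *Tox2*, below 1 CPM in every library (2.51, or 0.43 by limma on log2(TPM + 1)), and *Tcf3*. *Tcf3* encodes the E protein E2A and is not of the TCF/LEF family. It was at 170 and 94.3 CPM in EV RV and 59.96 and 75.5 CPM in Tox RV (-0.96, unadjusted p = 0.0227 by edgeR's quasi-likelihood test). Without EV RV replicate 1 *Tcf3* came to -0.48, and without replicate 2 to -1.33.

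Of the 17 effector and activation genes tested, 13 were lower in EV RV replicate 1 than in replicate 2, while 4 were higher, as 8 of the 9 members were. EV RV replicate 1 was the highest of the 4 libraries for 2 of them. The median log2 difference of EV RV replicate 1 from replicate 2 was -0.55, against 0.97 for the members and 0.69 for the other naive and memory genes. In the remaining lists, markers aside, it ran from 0.087 (IL-7 receptor signalling) to 0.75 (related transcription factors). Over all genes tested it was 0.00482, with 50.3% higher in EV RV replicate 1 than in replicate 2. *Gzmb*, which encodes the cytotoxic protease granzyme B, was at 329 and 1219 CPM in EV RV and 951 and 557 CPM in Tox RV, and *Batf*, an AP-1 factor of effector cells, at 17.6 and 62.4 CPM in EV RV and 58.7 and 58.7 CPM in Tox RV. Both were chosen with their values in view, and in both EV RV replicate 1 was the lowest library and EV RV replicate 2 the highest. Between the groups 9 of the list were higher and 8 lower (12 and 5 by library totals), with a median log2 fold change of 0.10 that became -0.33 without EV RV replicate 1. *Id2*, a factor that opposes the E proteins, was at 80.5 and 150 CPM in EV RV and 244 and 171 CPM in Tox RV (0.85, or 0.46 without EV RV replicate 1, unadjusted p = 0.0496 by edgeR's quasi-likelihood test). *Myc*, a driver of growth after activation, was at 226 and 166 CPM in EV RV and 147 and 117 CPM in Tox RV (-0.57, or -0.33 without EV RV replicate 1, unadjusted p = 0.0472 by edgeR's quasi-likelihood test).

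**Figure D4:**
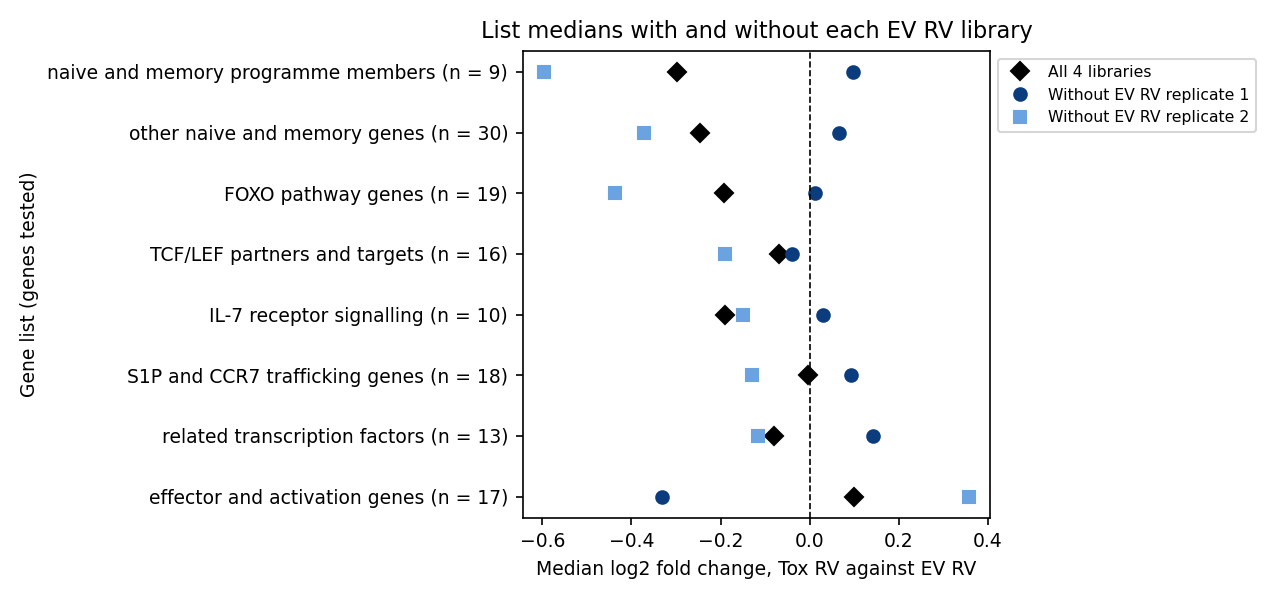
Median log2 fold change between Tox RV and EV RV cells for the members and each gene list, with the number of genes tested, from all 4 libraries (black) and without each EV RV library (blue). The members have a median of -0.30 with all libraries, 0.10 without EV RV replicate 1 and -0.60 without EV RV replicate 2, and the effector and activation genes run the other way.

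The median profile of the members, as log2 CPM centred over the 4 libraries, stood at 0.71 and -0.31 for EV RV and at -0.15 and -0.11 for Tox RV. The 3 other genes nearest to it were *Fyb*, *2610037D02Rik* and *Prkcz*, with root mean square differences of 0.04, 0.05 and 0.05 on the log2 scale. *Fyb*, an adaptor protein of T cell receptor signalling, was at 181 and 92.4 CPM in EV RV and 102.4 and 104 CPM in Tox RV. The likeness rests on 4 libraries and mostly on the level of EV RV replicate 1.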

How the data were processed

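RNA-seq of 2 EV RV and 2 Tox RV libraries was grouped by the sample labels. The authors checked reads with FastQC, used bowtie against mm10 transcripts and estimated each gene's abundance with RSEM, 1 library per file. The processing notes also name Bowtie2, and no versions are given in the sources used here. The deposited expected counts are RSEM's estimated fragments per gene, not normalized. The deposited TPM values and transcript lengths also come from RSEM. Whether strand was used is not stated. *Tcf7*, *Lef1*, *Foxo1* and *Satb1* overlap a GENCODE gene on the other strand, none of which is listed in the files. A deposited series-wide table was not used.

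Counts were rounded, filtered with filterByExpr (minimum count 10), scaled by TMM and compared without a block in R 4.3.3 with edgeR 4.0.16 (glmQLFit and glmQLFTest, Benjamini-Hochberg adjustment over 14143 genes, common biological coefficient of variation 0.232). Alternatives were DESeq2 1.42.0, limma 3.58.1 on log2(TPM + 1) and log2(TPM + 0.1), other scalings, no filter, the replicate number as a block, and each library left out. The scripts were tested on simulated data. An exact permutation test of 2 libraries against 2 cannot reach 0.05, so single values have none. Interval and standard error come from the quasi-likelihood fit.

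The members and lists were chosen with earlier results of these data known. The named genes are the 9 members, *Tox*, list genes with an unadjusted p below 0.05 (or the 2 smallest per list) and the 3 genes nearest the members' median profile. *Bach2*, *Gzmb* and *Batf* were named outside this rule, with their values in view. Some genes of the lists are not reported here. Genes of each list under the count filter (such as *Klrg1*, *Foxo6*, *Il7*, *Tslp*, *Foxp2* and *Tcf7l2*) were left out of the tests.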

Additional observations from a re-analysis of the deposited data

How the results depend on the processing

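All 9 members kept their direction under the other scalings, DESeq2, limma, no filter and the replicate block, and 0 were called there. Scaling by library totals moved the median of all genes to 0.12 and that of the members to -0.18. The number of genes called was 0 with all libraries in edgeR, 22 with DESeq2, 22 with no filter, 16 with the replicate block and 1 to 393 with each library left out. The replicate numbers are not known to pair mice (the replicate differences of the groups correlated at 0.302 over genes), and under the block the members' median was -0.30. With each library left out, members called ranged from 0 to 3 and members higher in Tox RV from 0 to 6. Members were called only without EV RV replicate 2, the fit that also called the most genes of all settings. That fit held a lone EV RV library, and its calls are not read as results of the members. The log2 fold change reached both signs for *Tcf7* (-0.50 to 1.33), *Lef1* (-0.12 to 0.79), *Klf2* (-2.25 to 0.59), *Foxo1* (-0.93 to 0.10), *Foxp1* (-0.60 to 0.077) and *Il7r* (-0.47 to 0.10), in each case between leaving out EV RV replicate 1 and replicate 2, and *Tcf7* also turned to -0.06 without Tox RV replicate 2. The cause was not tested. *Ccr7* (-1.57 to -0.60), *S1pr1* (-1.49 to -0.01) and *Satb1* (-0.42 to -0.17) stayed below 0. The runs over list genes and list medians were added after seeing the data. The lowest count of a member was 387.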
